A study of Mus musculus with 14 samples.

Results

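Clustered Myf6 binding peaks are the peaks of a Flag-Myf6 ChIP-seq list that lie close to several others of the same list. A peak on chromosomes 1 to 19 was counted as clustered when its summit, the base with the highest signal, had at least 2 other summits within 20 kb on the same chromosome. Of 12693 autosomal peaks, 2828 (22.3%) met this rule and 9865 did not. The whole list held 12898 peaks. The rule used the positions of the summits and none of their heights. The members nearest to the limit had their second-nearest summit at 19991, 19986 and 19985 bp, and the nearest non-members had it at 20027, 20032 and 20035 bp.

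Myf6, also called MRF4, belongs to the myogenic regulatory factors, basic helix-loop-helix proteins that bind DNA as dimers with E proteins at the E-box, the hexamer CANNTG. Together with Myf5, Myod1 and Myog, these factors commit cells to the muscle lineage and switch on the genes of the contractile apparatus, and Myf6 is the family member most abundant in adult muscle fibres. Regulatory elements of muscle genes often carry several E-boxes, and many such genes are controlled by more than 1 element.

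The ChIP came from primary myotubes, multinucleate cells grown in culture from adult mouse muscle satellite cells, and used a Flag antibody, which recognises a peptide tag and not Myf6 itself. It gave 1 library with 1 control library, so no peak had a replicate check. RNA was measured separately in hind limb skeletal muscle of wild-type (WT) and Myf6 knockout (Myf6 KO) mice, without injury and after injury, with 3 libraries in each of these groups. The labels used here give no strain, age, kind of injury or time after it, and no way in which the tagged Myf6 was expressed. The labels give each library a number with the letter L without injury and R after it. The numbers are shared between the states and not between the genotypes, so the states may come from the same animals, and a difference seen in both is not an independent repeat. Genotype cannot be told apart from any litter or batch of the animals. The p-values measure the spread between these libraries only.

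Sequences under 11 clustered summits that fell in a promoter are given first, to show which E-box hexamers, if any, lay near the summits. They are read from RefSeq promoter windows of GRCm38.p6, 5′ to 3′ on the strand of the gene, and cover up to 50 bases on each side of the summit, cut at the edge of the window. Every CANNTG is in capitals. They were chosen after the values were seen: 2 of the 3 with the highest fold enrichment, those at genes of the muscle lists below, others at genes known from muscle, and the 1 in the cluster beside Myod1.
Fam78a, chr2:32065064-32065161, minus strand: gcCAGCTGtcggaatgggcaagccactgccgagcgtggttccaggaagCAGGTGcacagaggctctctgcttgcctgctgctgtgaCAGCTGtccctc
Fam78a, another start, chr2:32084777-32084877, minus strand: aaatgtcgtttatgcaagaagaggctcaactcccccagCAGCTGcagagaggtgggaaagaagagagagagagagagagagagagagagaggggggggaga
Chn2, chr6:54264665-54264765, plus strand: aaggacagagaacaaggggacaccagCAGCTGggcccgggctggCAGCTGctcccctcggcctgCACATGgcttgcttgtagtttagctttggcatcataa
Hes6, chr1:91414207-91414288, minus strand: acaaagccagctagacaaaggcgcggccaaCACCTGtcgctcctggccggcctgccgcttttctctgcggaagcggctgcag
Musk, chr4:58285840-58285940, plus strand: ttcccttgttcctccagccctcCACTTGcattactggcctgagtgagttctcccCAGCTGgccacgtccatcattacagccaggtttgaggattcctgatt
Klhl41, chr2:69669936-69670036, plus strand: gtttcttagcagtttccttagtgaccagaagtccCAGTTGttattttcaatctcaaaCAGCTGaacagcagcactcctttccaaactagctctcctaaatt
Igfn1, chr1:136006474-136006574, minus strand: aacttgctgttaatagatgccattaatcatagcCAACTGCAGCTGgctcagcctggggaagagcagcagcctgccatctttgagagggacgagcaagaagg
Myom3, chr4:135759527-135759627, plus strand: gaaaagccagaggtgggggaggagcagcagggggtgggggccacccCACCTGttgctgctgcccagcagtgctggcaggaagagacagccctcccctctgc
Pdlim3, chr8:45885237-45885329, plus strand: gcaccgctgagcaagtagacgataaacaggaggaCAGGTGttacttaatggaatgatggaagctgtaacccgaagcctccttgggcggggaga
Atp2a1, chr7:126463222-126463322, minus strand: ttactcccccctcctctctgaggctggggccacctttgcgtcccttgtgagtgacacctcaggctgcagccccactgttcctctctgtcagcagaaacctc
Gm45923, chr7:46371246-46371346, plus strand: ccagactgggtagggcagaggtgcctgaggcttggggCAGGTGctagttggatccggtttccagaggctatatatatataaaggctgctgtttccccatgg

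The Fam78a window listed first held 3 E-boxes, 2 of them CAGCTG and 1 CAGGTG, and its summit, with a fold enrichment of 14.9, lay 1 bp from the nearest. Chn2, which encodes a chimaerin that switches off Rac, also had 3, with a fold enrichment of 12.5 at the summit. In Igfn1, which encodes a muscle protein of the Z-disc region, CAACTG and CAGCTG stood directly next to each other. Hes6 is a helix-loop-helix protein that opposes Hes1 in differentiating muscle cells, and Myom3 a protein of the sarcomere's M-band. The stretches shown at both held a single CACCTG with the summit inside it. The full Hes6 promoter window also held CAGCTG and CAACTG, beginning at its bases 80 and 87, with the summit at base 32. Klhl41 encodes a Kelch protein that stabilises thin filaments, Pdlim3 a Z-line protein that binds alpha-actinin, and Musk the receptor kinase of the neuromuscular junction. Their summits lay 7, 3 and 4 bp from the nearest E-box. The stretch shown at Atp2a1, the fast-fibre calcium pump, held no CANNTG. Its full promoter window held a CAGCTG 144 bp from the summit.

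The E-box was searched as CANNTG on both strands, which for this palindromic pattern read the same letters, within 50 bases of the summit, wherever the promoter windows covered that whole stretch. It was found in 33 of 36 such windows at clustered summits (91.7%, 95% Wilson interval 78.2 to 97.1%) and in 142 of 154 at other summits (92.2%, 86.9 to 95.5%). Among stretches of the same length in all 31363 promoter windows, 36.2% held it. The 2 sets of summits therefore differed by less than their counting error in this share, and no test was made.

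CAGCTG, one of the 2 hexamers that myogenic factors are known to prefer, was in 15 of the 36 clustered windows (41.7%, 27.1 to 57.8%) and in 99 of the 154 others (64.3%, 56.5 to 71.4%), against 5.57% of all promoters. The intervals overlapped only at their ends, and no test was made. The gap was smaller where the rule was loosened. With at least 1 other summit within 20 kb the shares were 58.1% and 61.5%, and with a window of 50 kb 54.4% and 63.1%. It changed less under stricter rules, which left few clustered windows. The shares were 42.1% (8 of 19 windows) and 61.99% with a window of 10 kb. With at least 3 others they were 44.4% (8 of 18) and 61.6%. They were 42.3% and 64.1% at −log10(q) of at least 5, and 42.9% and 62.5% with summits within 1 kb merged. At a fold enrichment of at least 10, 0 clustered windows were left to compare. CAGGTG or its reverse complement CACCTG was in 30.6% and 31.2%, against 7.73% of all promoters. CAGATG or CATCTG was in 8.33% and 9.74%, against 6.25%, and CATATG was in 0 windows of either set, against 1.25% of all promoters. Over the whole 300-base promoter windows that held a summit, 54 of 55 with a clustered summit held CANNTG (98.2%) and 34 held CAGCTG (61.8%). Of 226 windows with another summit, 97.3% and 69.9% did. Across all promoters 72.2% held CANNTG and 16.3% CAGCTG. Of the 54 clustered peaks with a summit in a promoter window, 31 (57.4%) had an E-box within 10 bp of the summit. This share was not taken for other summits. Within 25 bases of the summit, CANNTG was in 69.6% of clustered and 71.5% of other windows, and CAGCTG in 28.3% and 46.4%. Within 100 bases CAGCTG was in 60.0% (12 of 20) and 70.1%, so its gap was smaller there too. These shares describe promoter peaks, a small part of the clustered peaks, and a match to these letters was not a test of binding.

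Clustered peaks were chained into clusters wherever neighbouring clustered summits lay within 20 kb of each other, which gave 887 chains. There were 707 chains of at least 3 clustered peaks, and they held 2619 peaks. A further 29 chains had 2 clustered peaks and 151 had 1, because the peaks at their ends had too few neighbours to be members. The commonest size was 3 peaks, in 422 chains, followed by 4 peaks in 163 and 5 peaks in 72. Chains of 6 to 12 peaks were rarer, 50 in all. The chains of at least 3 spanned a median of 14.9 kb and at most 60.9 kb. Neighbouring summits were a median of 4801 bp apart (quartiles 1622 and 9471 bp), and 17.4% of the gaps were under 1 kb. These spacings follow in part from the 20 kb limit of the rule.

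In the chains of at least 3, the strongest peak had a median fold enrichment of 11.1 over the local control background and the weakest 5.32. The strongest was a median of 2.02 times the weakest and 1.30 times the second, ratios that are at least 1 by their construction. In 441 of the 707 chains (62.4%) at least 1 peak reached a fold enrichment of 10, in 8 all peaks did, and in 266 none did. Each chain had at least 3 peaks that could reach it. Among single peaks, 24.0% of clustered and 24.5% of others did.

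**Figure D1:**
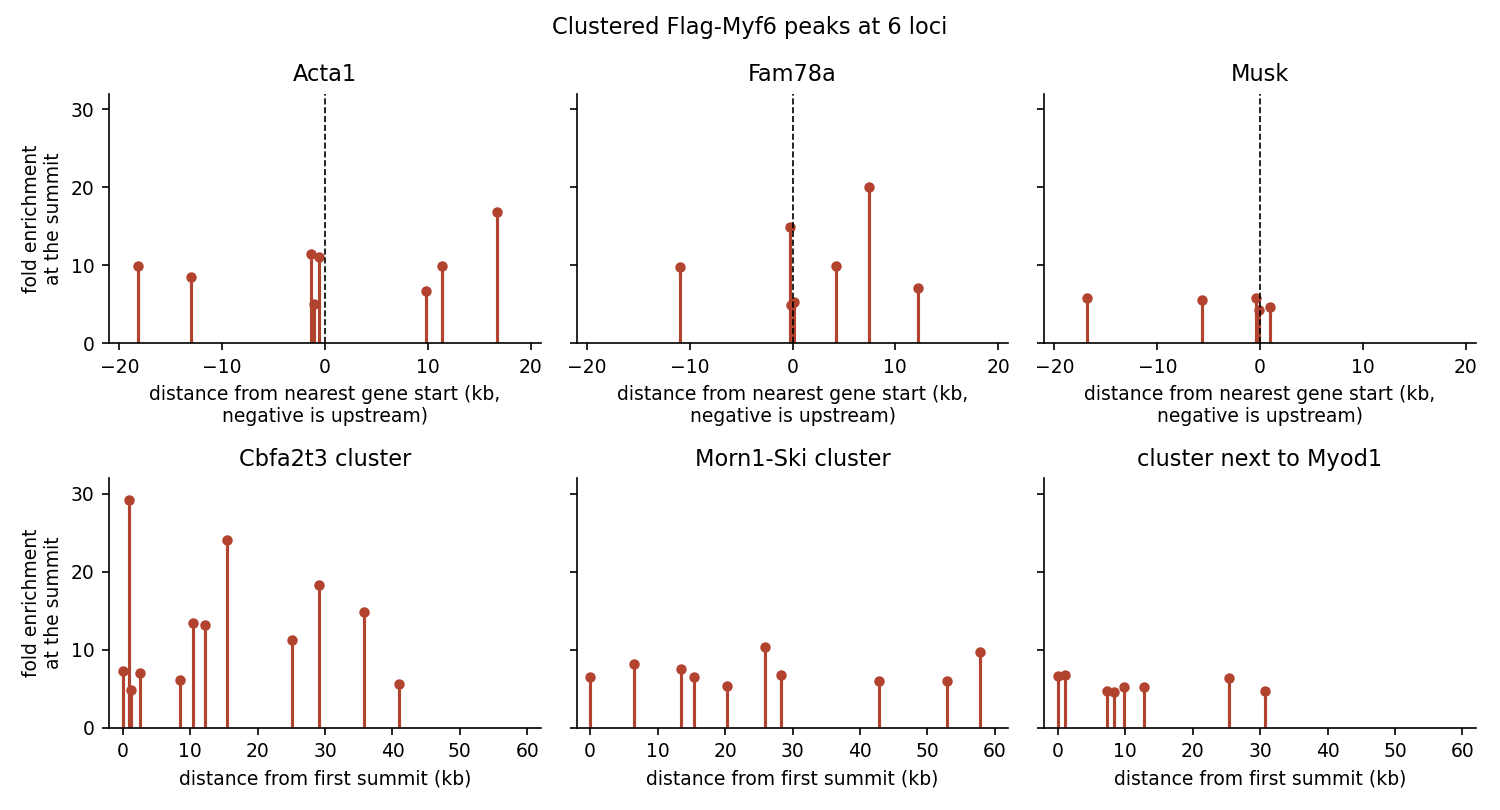
Fold enrichment at each clustered summit (vertical axis) at 6 loci, against distance from the nearest gene start in kb for Acta1, Fam78a and Musk and against distance from the first summit in kb for the other 3. The Cbfa2t3 cluster is the tallest, with 1 summit at 29.2, while the summits of the cluster next to Myod1 all lie under 7.

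The cluster with the most peaks held 12, between 122636216 and 122677140 on chromosome 8 (GRCm38), inside Cbfa2t3, which encodes a transcriptional corepressor. Its fold enrichments ran from 4.83 to 29.2, and 7 of the 12 were at least 10. The tallest, at chr8:122636920-122637234, had a pileup of 83.9, the number of extended tags over the summit as the authors' peak caller scaled it. A cluster of 10 lay between 155120692 and 155178546 on chromosome 4, in Morn1 and Ski, the latter a corepressor of SMAD signalling. Its profile was flatter, with fold enrichments of 5.32 to 10.4.

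There were 4 clusters of 9 peaks, 3 of which are described here. The cluster on chromosome 8 from 123878042 to 123914878 covered Acta1, the skeletal muscle alpha-actin, and part of Nup133. Another, on chromosome 6 from 120938899 to 120991198, lay in Mical3, an enzyme that oxidises actin. The last overlapped no coding gene and began 1.74 kb from Atp13a3 on chromosome 16. Their tallest peaks had fold enrichments of 16.8, 12.6 and 14.9 in that order.

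A cluster of 8 lay beside Myod1, the determination factor of the same family, on chromosome 7 from 46340541 to 46371296. Its summits stood between 5.18 and 35.9 kb below the start of the gene's span, which runs from 46376474 to 46379092. Enhancers upstream of Myod1 are known to direct its expression. None of the 8 peaks was tall: their fold enrichments ran from 4.56 to 6.76. Their pileups ran higher for that fold, up to 56.0 extended tags at a summit with a fold enrichment of 5.18. The summit nearest to Myod1 is the 1 whose sequence is given above under Gm45923, a long noncoding RNA with a start there.

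Of the remaining large clusters, 3 overlapped no coding gene: 8 peaks on chromosome 8 from 126839183 to 126877000, with 5 of them at a fold enrichment of at least 10 and a highest of 21.6, 8 peaks on chromosome 16 from 24200423 to 24238110, and 7 peaks on chromosome 3 from 101494364 to 101552079. The others lay in Sh3pxd2a, which encodes a podosome adaptor (8 peaks), at Slc4a3 and Stk11ip (8), in Plxna1, a semaphorin receptor (7), in Lima1, an actin-binding protein (7), and at Fam78a (7). The Fam78a cluster, on chromosome 2 from 32051921 to 32095658, was the closest to starts: 4 of its summits lay within 1 kb of a listed start, including a summit 0.13 kb into Plpp7, which encodes a nuclear envelope protein of muscle. Its tallest peak, with a fold enrichment of 19.95, lay 7.48 kb inside Fam78a.

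The 5 clustered peaks with the highest fold enrichment belonged to small clusters. They were chr11:59161504-59161782 in Iba57 (49.6), chr11:59322843-59323405 in Wnt9a (42.3), chr5:135513111-135513583 in Hip1 (38.3), chr9:50457675-50458013 outside coding genes (35.3) and chr7:48870175-48870530 in E2f8 (34.2). Each stood among neighbours far below it. Iba57, which encodes a mitochondrial iron-sulfur cluster protein, had a second-highest summit of 11.3, and Hip1, an endocytic adaptor, 7.74.

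As a set, clustered peaks were not taller than the other 9865 when scored against local background, but had more tags at the summit. Their median fold enrichment was 7.49 (quartiles 5.81 and 9.90) against 7.69 (6.12 and 9.95). A fold enrichment of at least 10 was reached by 24.0% of clustered peaks and 24.5% of the others. Their median pileup was 23.2 extended tags against 19.3, their median length 182 bp against 171 bp, and their median −log10 of the q-value 11.8 against 10.8. All these values are the authors'. With 1 ChIP library, no difference between clustered and other peaks was tested, here or below.

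The values can be related through the local background that the peak caller used. With a pseudocount of 1, the fold enrichment is the pileup plus 1 over the background plus 1, and solving this gave a lowest background of 0.446 extended tags, next to 0.447 computed for the whole genome from the control tags of the file header. The implied background had a median of 2.0 extended tags at clustered peaks (quartiles 1.14 and 3.05) and 1.65 at the others (1.0 and 3.0). It was over 3 tags at 32.2% of clustered and 21.6% of other peaks. The upper quartile of the others, 2.9996, stood at 3 within rounding, so peaks near 3 can fall on either side of this limit. Among peaks within 1 kb of a start the median background was 2.54 at clustered and 2.0 at other peaks, and beyond 5 kb 2.0 and 1.52. What set the background at these sites was not tested.

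The pileup went up with the number of other summits within 20 kb. Its median was 19.3 at peaks with no neighbour, 20.3 with 1, 22.2 with 2, 23.2 with 3 and with 4, and 26.5 with 5 or more. The median fold enrichment was 7.73, 7.67, 7.66, 7.31, 7.36 and 7.27 in the same order. There were 6349, 3516, 1629, 739, 334 and 126 peaks in these classes. With 1 library the order of these medians was not tested.

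**Figure D2:**
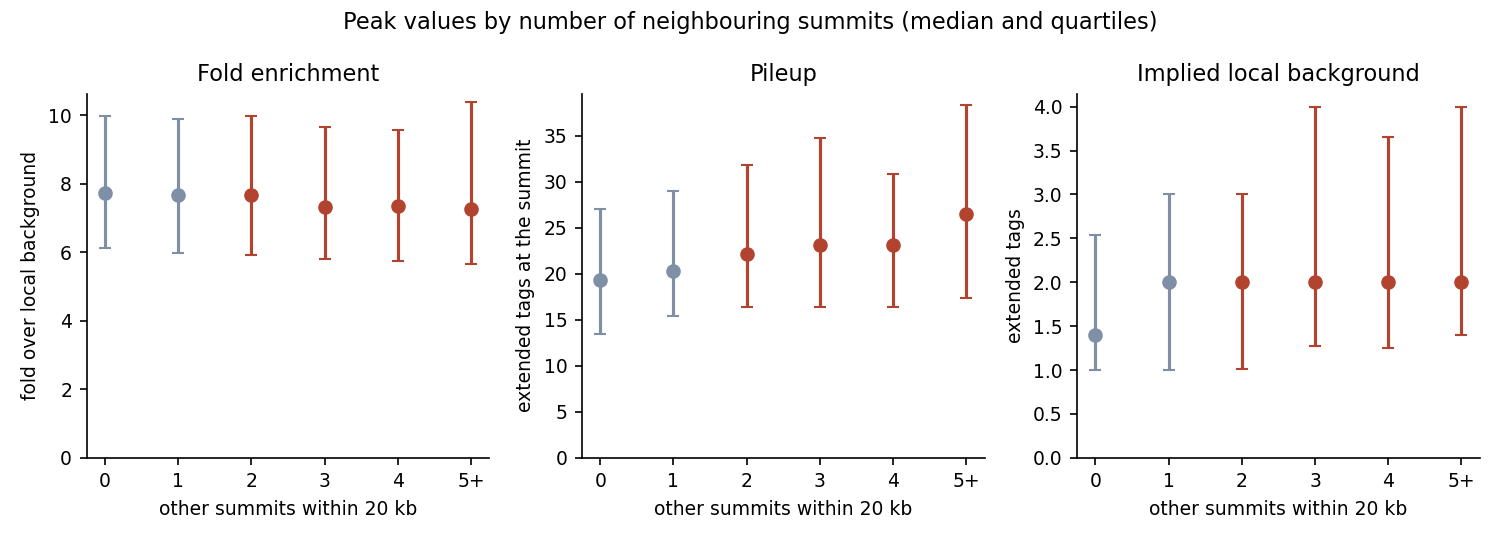
Median (point) and quartiles (bars) of fold enrichment, pileup in extended tags and implied local background in extended tags (vertical axes), by number of other summits within 20 kb (horizontal axis), with clustered peaks in red and other peaks in grey-blue. The median pileup goes from 19.3 without a neighbour to 26.5 with 5 or more, while the median fold enrichment goes from 7.73 to 7.27.

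Clustered peaks lay nearer to genes than the others, except at the start itself. Distances were taken to the nearest gene start listed in the RefSeq promoter windows used here. These windows held no start on chromosome 18, so 2736 clustered and 9514 other peaks entered. They also lacked some coding genes elsewhere: 16457 autosomal coding genes had a listed start, next to 20665 with a span. Some distances can therefore be overstated. The share within 1 kb of a start was 5.85% against 5.77%. Within 5 kb it was 19.8% against 16.4%, and within 20 kb 56.1% against 45.5%. Beyond 50 kb lay 18.8% of clustered and 29.6% of other peaks, and the median distance was 16417 bp against 23520 bp. On all autosomes 64.5% of clustered summits were inside the span of a protein-coding gene, against 56.2% of the others. Within 100 kb of a summit there was a mean of 2.49 listed starts of coding genes for clustered peaks and 2.04 for the others.

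**Figure D3:**
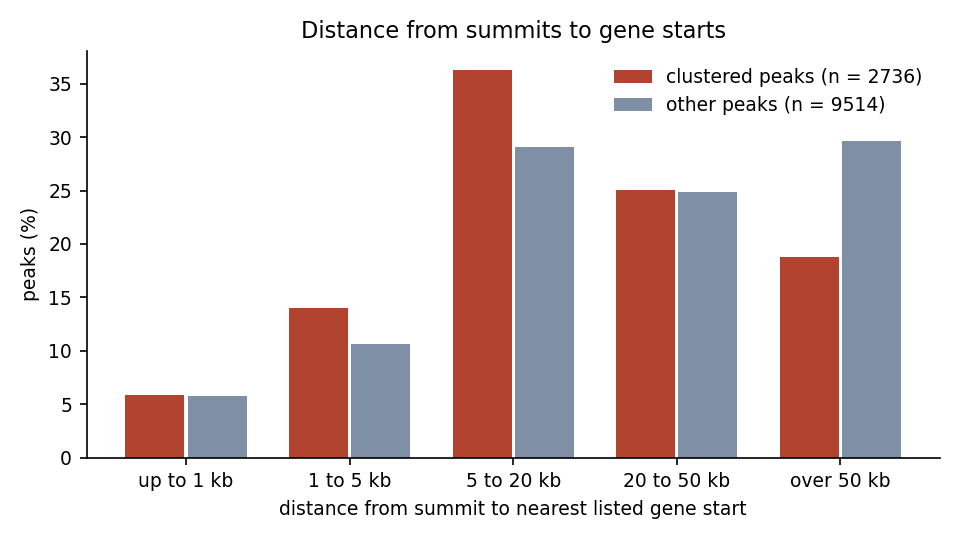
Share of clustered peaks (red, n = 2736) and other peaks (grey-blue, n = 9514) in percent (vertical axis) by distance from the summit to the nearest listed gene start (horizontal axis). The bars are alike up to 1 kb (5.85% and 5.77%) and differ most beyond 50 kb (18.8% and 29.6%).

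Most clusters had no member at a listed start. Of 682 chains of at least 3 clustered peaks outside chromosome 18, 114 (16.7%) had a summit within 1 kb of a listed start and 0 had all summits there. In 354 (51.9%) no listed start of a coding gene lay within 20 kb of any summit. These counts miss genes without a listed start. The cluster beside Myod1 is among the 354, since Myod1 has no listed start. Clustered peaks within 1 kb of a start had a median fold enrichment of 6.84 (n = 160) and those beyond 5 kb 7.67 (n = 2193). For other peaks these were 7.24 and 7.72.

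The share of peaks that were clustered ranged from 20 of 225 on chromosome 14 (8.89%) to 118 of 397 on chromosome 19 (29.7%). Chromosome 14 also had the fewest peaks per Mb, 1.95 against 4.39 or more on the other autosomes, and the rule depends on that density.

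Genes of muscle were often next to clustered peaks, and also next to other peaks. A gene was counted when a clustered summit lay within 20 kb of a listed start or, for genes without a listed start, of the gene's span. Of 21 myogenic regulators 7 had one, of 35 sarcomere genes 11, and of 21 genes of excitation and the neuromuscular junction 7. Of 29 myokine and growth factor genes and of 11 Notch pathway genes 0 did, although 11 and 7 of them had other peaks within that distance. By start alone the counts were 4 of 11, 8 of 29 and 4 of 13 for the 3 muscle lists, next to 577 of all 16457 protein-coding genes with a listed start (3.51%). By span alone they were 3 of 10, 3 of 6 and 3 of 8, next to 1179 of 20665 coding genes (5.71%). Of 10 housekeeping genes 1 did. Other peaks only were within that distance of 8, 20 and 13 genes of the 3 muscle lists. By start, this held for 3109 of the 16457 coding genes. No test was made of these shares.

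**Figure D4:**
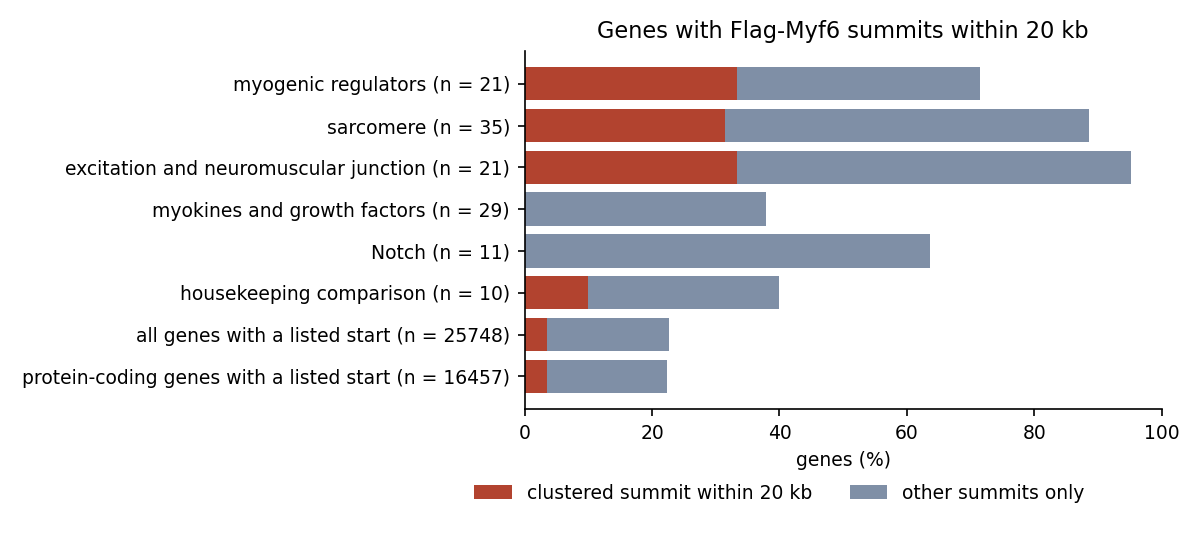
Share of the genes of each list in percent (horizontal axis) with a clustered summit within 20 kb (red) and with other summits only (grey-blue). The red share is 31.4% to 33.3% for the 3 muscle lists and 0 for the myokine and Notch lists. It is 3.51% for protein-coding genes with a listed start. The lists also hold genes measured from their span, for which the share of coding genes was 5.71%.

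Among the regulators, Mymx had the most clustered summits, 5. Mymx and Mymk encode myomixer and myomaker, the membrane proteins that fuse myoblasts. At Mymx, 1 summit with a fold enrichment of 14.8 lay inside the gene, and 14.5 and 13.5 were reached 19.95 kb below and 14.1 kb above it. Mymk had 1 summit inside its span, with 9.82, and others 0.057 and 3.59 kb beyond it, with 8.14 and 8.69. Mef2a and Mef2d encode MADS-box partners of the myogenic factors. At Mef2a, summits of 14.7 and 14.5 stood 12.4 and 12.8 kb upstream of the start and 1 of 7.91 stood 0.699 kb upstream. At Mef2d all 3 lay inside the gene, 3.11 to 8.23 kb after the start, at 4.78, 13.5 and 12.4. Myog had 2 clustered summits 12.7 and 17.6 kb downstream of its start, and Six4 had 1.

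Acta1 had 8 clustered summits within 20 kb of its start. There were 3 in a group 0.618, 1.104 and 1.409 kb upstream, with fold enrichments of 11.0, 5.03 and 11.4, and the first had a pileup of 86.8. The tallest in fold, 16.8, lay 16.7 kb downstream. Actn2, the Z-disc alpha-actinin, had 4 clustered summits with fold enrichments of 3.14 to 6.77, the highest 0.871 kb upstream. Myl1, the essential light chain of fast myosin, had 4, of which those 6.199 and 19.996 kb upstream reached 9.52 and 10.1. Tnni2, the fast troponin I, had 1 summit of 6.63 in the gene and a pair of 12.6 and 11.7 about 11.5 and 11.3 kb below it. The other sarcomere genes with clustered summits were Actc1, Tnnt1, Mybpc1 and Myom2 with 3 each, and Tnni1, Neb and Des with 2 each.

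Musk had 5 clustered summits, all low, with fold enrichments of 4.19 to 5.81. The summits 0.354 and 0.072 kb upstream and 0.974 kb downstream of the start stood as a group. Dok7, the activator of that kinase, had 3, the tallest (14.5) 14.2 kb into the gene. Colq, the collagen tail that anchors acetylcholinesterase at the synapse, had 3 inside the gene at 6.28 to 8.70. Sln, sarcolipin, which inhibits the calcium pump of the sarcoplasmic reticulum, had 4: 1 in the gene (4.45) and 3 on the side of lower coordinates, of which the summit 14.1 kb away reached 14.96. The other genes of this list with clustered summits were Cacng1, Cacnb1 and Atp2a1 with 3 each. Gapdh, the glycolytic enzyme used here as a housekeeping gene, had 4 summits 8.76 to 18.3 kb downstream of its start, at 4.83 to 7.84.

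RNA was then compared between Myf6 KO and WT muscle for genes near clustered peaks. The peaks were from cultured myotubes and the RNA from whole muscle. In such bulk samples fewer cells of a type and less RNA per cell cannot be told apart. The libraries held 1880087 to 49392472 reads, and a WT library without injury (replicate 2) was the shallowest. Summed markers of muscle fibres were 121169 to 190494 RPM, the reads of a gene scaled to a common library total, across all libraries. The summed markers of some other cells did not overlap between the genotypes. The 4 macrophage markers summed to 68.1 to 124 RPM for WT and 38.8 to 67.4 RPM for KO without injury, and to 85.6 to 111 and 72.5 to 78.1 RPM after it. The 4 adipocyte markers summed to 334 to 984 RPM for WT and 1032 to 2113 RPM for KO after injury, and overlapped without it. Summed markers of satellite cells, endothelial cells, fibroblasts, blood and Schwann cells overlapped between the genotypes in both states. The part of any of these cells in the results that follow was not tested. Myf6 itself was between 24.999 and 121 RPM in the WT and between 1.86 and 3.46 RPM in the KO libraries, with no overlap.

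Of 914 genes with a listed start within 20 kb of a clustered summit, 683 were in the RNA tables. In uninjured muscle 474 of them (69.4%) were tested, since they reached 1 RPM in 3 or more of 6 libraries. This share was 64.7% for genes near other peaks only and 44.2% for genes with no peak within 20 kb.

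By limma on all libraries, genes near clustered peaks were seldom called different between KO and WT. In uninjured muscle 1 of the 474 passed an adjusted p of 0.05 by limma, where 35 of all 12460 genes did (0.281%). In injured muscle 1 of 480 passed, where 34 of 12625 did (0.269%). The count after injury turned on 1 library: without KO replicate 2, 108 of 473 passed (22.8%), where 19.0% of all genes did. At an unadjusted p under 0.05 the counts were 69 (14.6%, 24 higher in KO) against 14.2% of all genes without injury, and 55 (11.5%, 31 higher) against 10.3% after injury. These shares are near the background. On reads recovered from the RPM values, edgeR called 2 of these genes without injury (0.422%, against 0.441% of all genes) and 1 after it (0.208%, against 0.261%). DESeq2 called 31 (6.54%, against 5.32% of all genes) and 16 (3.33%, against 3.38%). By the authors' deposited table, 19 genes near clustered peaks had a q-value under 0.05 without injury, 13 of them higher in KO, and 9 after injury, 5 of them higher. Over all genes of the authors' deposited tables the shares were 0.668% and 0.454%. Among the genes that passed the filter, they were 18 of 474 (3.80%) against 2.56% of all without injury, and 9 of 480 (1.88%) against 1.52% after injury.

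Exoc7 encodes a subunit of the exocyst, the complex that tethers secretory vesicles to the plasma membrane. It had 3 clustered summits, at 12.2 and 10.2 kb downstream and 5.83 kb upstream of its start, with fold enrichments of 7.74, 6.04 and 11.0. Without injury the WT libraries held 244, 212 and 236 RPM and the KO libraries 58.9, 46.5 and 50.3 RPM of its RNA. After injury the WT libraries held 260, 141 and 253 RPM and the KO libraries 56.6, 57.3 and 49.2 RPM. Every KO library lay below every WT library in both states. It fell by 2.13 ± 0.24 (SE, n = 3 against 3) on the log2(RPM + 1) scale without injury, at a limma adjusted p of 0.00786. After injury the difference was −1.94 ± 0.26 at a limma adjusted p of 0.0568. The call without injury was lost when WT replicate 1, 2 or 3 or KO replicate 1 was left out (limma adjusted p 0.0679 to 0.193) and without a filter on low values (0.0896). Under the 12 alternatives tried the difference stayed between −2.23 and −1.88 without injury, with an adjusted p under 0.05 in 7, and between −2.22 and −1.78 after injury, with an adjusted p under 0.05 in 5. In the authors' deposited table the q-values were 3.34e-08 and 7.81e-09.

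Fxyd6 encodes a small membrane protein of a family that regulates the sodium pump. It had a clustered summit 0.007 kb upstream of its start with a fold enrichment of 5.15, and others 1.68 and 19.5 kb upstream. After injury WT libraries had 22.1, 18.6 and 17.6 RPM and KO libraries 43.98, 53.7 and 51.6 RPM, with no overlap. It rose by 1.31 ± 0.17 on the log2 scale, at a limma adjusted p of 0.0483. Without injury WT libraries held 24.9, 23.4 and 30.1 RPM and KO libraries 36.4, 18.5 and 53.9 RPM, which overlapped (difference 0.34 ± 0.39, limma adjusted p 0.737). The difference between the states did not pass a test (interaction 0.97 ± 0.45, limma adjusted p 0.9999, and 0.97 ± 0.42, adjusted p 0.965, with the label number as a block). The call after injury stood close to the threshold. It was lost when any single library other than KO replicate 2 was left out (limma adjusted p 0.246 to 0.411). It was also lost with upper quartile scaling (limma adjusted p 0.05002), without a filter (0.0668) and with the replicate number as a block (0.481). By edgeR it was lost too (adjusted p 0.0543). The difference held between 1.25 and 1.41 under the 12 alternatives, with an adjusted p under 0.05 in 3. DESeq2 gave an adjusted p of 5.0e-09 and the authors' deposited table a q-value of 1.1e-06.

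Sln was higher in KO in both states without passing the limma test. Without injury WT libraries held 18.5, 12.8 and 8.00 RPM and KO libraries 37.6, 21.3 and 40.1 RPM. After injury WT libraries held 9.002, 2.70 and 16.6 RPM and KO libraries 132, 26.3 and 47.1 RPM. The groups did not overlap in either state. The differences were 1.29 ± 0.39 (limma adjusted p 0.196) and 2.69 ± 0.73 (limma adjusted p 0.298). In the authors' deposited table the q-values were 0.0340 and 0.00776.

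Fam78a showed the same kind of split without injury, at 12.3, 9.04 and 19.0 RPM in WT and 29.8, 19.7 and 39.8 RPM in KO (difference 1.09 ± 0.38, limma adjusted p 0.238). The authors' deposited table gave it a q-value of 0.0314. After injury the groups overlapped, with 20.6, 22.4 and 17.9 RPM in WT and 37.8, 15.8 and 40.8 RPM in KO (difference 0.51 ± 0.36, limma adjusted p 0.665). Without injury, Wnt9a was also higher in every KO library (limma adjusted p 0.386) and Lima1 lower in every KO library (limma adjusted p 0.404). Both genes overlapped after injury. The share of all tested genes with no overlap between the groups was not taken.

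**Figure D5:**
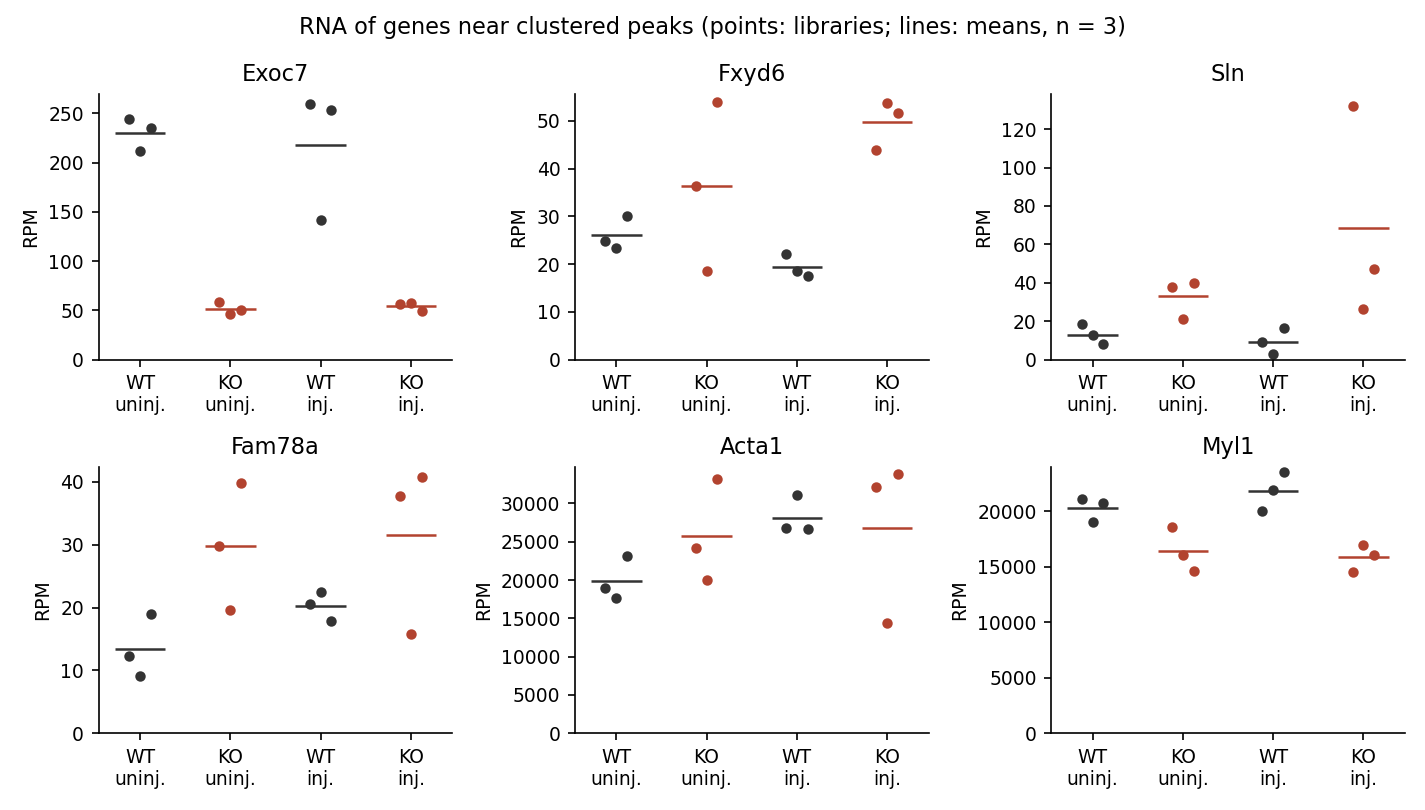
RNA level in RPM (vertical axes) of 6 genes near clustered peaks, 1 point per library and a line at the mean of 3, for WT (black) and Myf6 KO (red) muscle, uninjured (uninj.) and injured (inj.). Exoc7 is lower and Sln higher in every KO library than in any WT library of the same state, while the Acta1 groups overlap in both states.

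Of the 6 genes with 7 or more clustered summits within 20 kb of a start, Acta1, Gm29773, Fam78a and Fth1 were tested and none was called in either state (limma adjusted p 0.238 to 0.934). Gm31814, with the most (11), and Gm40415 (8) had no matched RNA values. Acta1 in muscle without injury reached 18986, 17633 and 23192 RPM in the WT libraries, next to 24242, 19964 and 33199 RPM in the KO libraries (difference 0.35 ± 0.33, limma adjusted p 0.680). After injury the levels were 26743, 31078 and 26675 RPM for WT, next to 32210, 14358 and 33789 RPM for KO (−0.17 ± 0.41, limma adjusted p 0.922). The groups overlapped in both states. Cbfa2t3, with the largest cluster, had 14.03, 11.7 and 13.5 RPM in the uninjured WT libraries, next to 15.1, 16.3 and 14.3 RPM in the KO libraries, with no overlap but a small difference (0.21 ± 0.29, limma adjusted p 0.796).

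Myl1 lay lower in every KO library than in any WT library in both states. Without injury the WT libraries had 21147, 19074 and 20774 RPM, the KO libraries 18599, 16032 and 14646 RPM. After injury the WT libraries had 20048, 21960 and 23542 RPM, the KO libraries 14550, 16977 and 16097 RPM. The differences, −0.31 ± 0.29 and −0.46 ± 0.27, did not pass (limma adjusted p 0.672 and 0.597). Under the 12 alternatives the difference ran from −0.41 to −0.053 without injury and from −0.52 to −0.40 after it. The authors' deposited table gave −0.067 and −0.45. For Actn2, Tnni2, Musk, Dok7, Mef2a, Mef2d and Gapdh the groups overlapped in both states, with limma adjusted p values of 0.439 to 0.996. Colq overlapped without injury, and after injury its KO libraries (9.66, 14.3 and 9.70 RPM) lay above its WT libraries (6.75, 9.25 and 5.93 RPM) at a limma adjusted p of 0.495. Mymx and Mymk stayed under 1 RPM in every library and were not tested.

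The median difference of genes near clustered peaks was −0.04 on the log2 scale without injury, where the median of all tested genes was −0.18, that of genes near other peaks only −0.12 and that of genes with no peak −0.21. Scaling to the upper quartile in place of the total moved the median of all genes to 0.04 and that of genes near clustered peaks to 0.19. Relative to all genes, genes near clustered peaks were thus 0.13 higher with the total and 0.14 with the upper quartile. Between libraries of a group the list's median had an SD of 0.26, and of 0.042 when taken relative to all genes. Summed muscle fibre markers moved the same way: they were 167316 to 190494 RPM in KO and 128329 to 138911 RPM in WT libraries without injury, with no overlap. The sum is not separate from the list: the markers Acta1 and Mb had 8 and 6 clustered summits within 20 kb of their starts. Without injury Acta1 differed by 0.35 and Mb by −0.17 (limma adjusted p 0.680 and 0.878). The part of the fibre markers in the result was not tested. After injury the medians were 0.04 for genes near clustered peaks, 0.03 near other peaks only and 0.01 for all genes, and the fibre markers overlapped.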

How the data were processed

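The authors' peak list gives position, pileup (a signal), −log10 q-value and fold enrichment over control, a ratio, per the file headers: 36 bp tags extended to 127 bp, 6820784 ChIP and 6581071 control tags kept after duplicate removal, q cutoff 0.05. The submitters' processing notes list Bowtie 1.1.0, MACS2 2.1.0.20140616, HISAT2 2.1.0, featureCounts and DESeq2, with builds mm10 and GRCm38.p5. RefSeq gene spans and promoter windows were of GRCm38.p6, the same assembly on these chromosomes. No genome sequence was used here. Of 49585 genes with RNA values, 36136 matched a RefSeq gene.

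The authors deposited RNA as RPM (reads scaled to the library total), with their own log2 fold changes and q-values. RPM values were whole multiples of 1 read (100% within 0.1 read), so edgeR 4.0.16 and DESeq2 1.42.0 could be run on recovered counts as alternatives. The deposited RPM values were tested as log2(RPM + 1) with limma 3.58.1 (trend), keeping genes that reached 1 RPM in 3 or more libraries, with Benjamini-Hochberg adjustment over all genes tested, two-sided, per injury state. The fold change of low genes is understated on this scale. Scripts were tested on simulated data. The interaction was fitted over all 12 libraries without a block, and again, as an alternative added after the data were seen, with the label number shared between states as a block.

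Named clusters were the 15 with the most clustered peaks, the 5 with the highest fold enrichment and those near up to 4 genes per list. Named genes were those that passed near clustered peaks, these list genes and genes of the named clusters. Members and lists were chosen with earlier results of these data known.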

Additional observations from a re-analysis of the deposited data

Results flagged for a closer look

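Peaks outside the autosomes were not part of the comparison. On chromosome X, 14 of 192 peaks had at least 2 other summits within 20 kb, and the median fold enrichment there was 8.11. On the mitochondrial genome all 10 peaks met the rule, at a median fold enrichment of 1.58 and a highest of 2.63, below the lower quartile of the autosomal clustered peaks (5.81). The short length of that genome puts its summits within 20 kb of each other. No gene named here had KO libraries all above WT in 1 injury state and all below in the other.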

How the results depend on the processing

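The number of clustered peaks follows the rule: 1430 at 10 kb, 5887 at 50 kb, 6344 with at least 1 other summit, 1199 with at least 3, and 98 when only peaks with a fold enrichment of at least 10 entered. The median fold enrichment of clustered peaks was 7.31 with at least 3 others, 7.73 at −log10(q) of at least 5, 12.9 at a fold of at least 10 and 7.69 with summits within 1 kb merged; for other peaks the −log10(q) and fold limits gave 8.03 and 12.6. The share of clustered peaks within 1 kb of a start was 6.87% with at least 3 others and 1.06% at a fold of at least 10 (other peaks 4.87%). Within 500 bp it was 3.80% (others 3.89%) and within 5 kb 19.8% (16.4%). E-box shares were 69.6% (71.5%) within 25 bases and 100% (98.9%) within 100.

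Calls among genes near clustered peaks, without injury, numbered 0 without a filter, 9 with upper quartile scaling (1.90%, against 1.25% of all genes), 2 by edgeR, 31 by DESeq2, 0 for starts within 5 kb, 2 within 50 kb, and 19 by the authors' deposited q-values. After injury they numbered 2 with a pseudocount of 0.1, 0 without a filter, 16 by DESeq2, 4 within 50 kb and 9 by the authors' deposited q-values. Leaving out 1 library gave 0 to 3 without injury and 0 to 108 after injury. The 108, of 473 tested, came without KO replicate 2, when 2343 of all 12312 genes were called; without any other library the count was 0. The median difference without injury became 0.19 with upper quartile scaling, 0.16 with edgeR and 0.17 with DESeq2, and −0.23 to 0.12 with 1 library left out. After injury it was −0.0019 to 0.080. Relative to all genes, the median without injury was 0.099 to 0.16 higher in every fit, all of them on these libraries, but that without a filter (0.0056). With the replicate block the calls were 32 without injury (6.75%, against 6.04% of all genes) and 0 after (26 at an unadjusted p under 0.05), by limma. The replicate numbers join libraries with different label numbers, with same-number correlations of 0.03 to 0.38 and −0.61 to −0.30.

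Of the genes named, Musk changed sign with edgeR (0.12 without and −0.087 after injury) and DESeq2 (0.12 and −0.073). With 1 library left out, differences without injury ran from −0.81 to 0.14 for Mef2a, −0.33 to 0.76 for Mef2d, −0.14 to 0.58 for Tnni2, −0.67 to 0.49 for Musk, −0.13 to 0.18 for Dok7 and −0.14 to 0.24 for Colq. After injury they ran from −0.24 to 0.45 for Mef2d, −0.39 to 0.23 for Acta1, −0.18 to 0.54 for Musk, −0.29 to 0.066 for Dok7 and −0.27 to 0.70 for Gapdh. DESeq2 called Sln in both states. Precision is limited by 1 ChIP library, 3 RNA libraries a group and a WT library of 1880087 reads.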
